A study of Homo sapiens with 9 samples.

Results

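ATF4 and the unfolded protein response were followed in RKO cells through 34 genes, out of 36337 gene names on the array. Probes were chosen by the gene name that the array files give them, and where several probes carried a name the brightest was used. The genes form an ATF4 side of 21 genes (regulators, stress effectors, enzymes of serine synthesis and mitochondrial one-carbon metabolism, and other amino acid enzymes) and an endoplasmic reticulum side of 13 genes (sensors, chaperones and degradation factors). RKO is a colorectal cancer cell line, and its total RNA was measured on 9 arrays in 5 conditions. Cells received a control siRNA (siCONT) or an siRNA against UHRF1 (siUHRF1), which recruits the maintenance DNA methyltransferase, for 72 h, followed by 24 h of mock treatment (ethanol) or of 300 nM trichostatin A (TSA), an inhibitor of histone deacetylases. Each of these 4 combinations of siRNA and treatment (siCONT, siUHRF1, siCONT + TSA, siUHRF1 + TSA) was measured on 2 arrays. In both UHRF1-depleted groups replicate 1 carried siUHRF1-1 and replicate 2 carried siUHRF1-2. A single further array held RKO cells given 1 µM 5-aza-2'-deoxycytidine (5-aza-dC), an inhibitor of DNA methyltransferases, for 72 h without siRNA. The labels do not say that the arrays of a group came from separate cultures, so p-values measure the spread between these arrays, which may be technical.

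In the integrated stress response, kinases that sense unfolded proteins, amino acid shortage, viral RNA or haem deficiency phosphorylate the translation factor eIF2, which slows translation in general and favours translation of ATF4 from its existing mRNA. ATF4 then switches on genes for amino acid synthesis and transport together with regulators such as DDIT3 (CHOP) and TRIB3. Unfolded proteins in the endoplasmic reticulum act through 2 further sensors, IRE1 (gene ERN1), which splices the mRNA of XBP1, and ATF6, which is cleaved to an active factor. Both raise chaperones such as HSPA5 (BiP) and the machinery that carries misfolded proteins out for degradation. The arrays measured mRNA, and neither splicing of XBP1, cleavage of ATF6 nor the amount of ATF4 protein was read.

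Stretches of promoters are shown here because each arm is known to act through its own DNA element, and the sides of the list follow the arms. RefSeq promoter windows (GRCh38.p14, 250 bases before the start site and 50 after it) were at hand for 30 of the 34 genes, 17 of the ATF4 side and 13 of the endoplasmic reticulum side. ALDH1L2, NUPR1, SHMT2 and PSPH had no entry. The C/EBP-ATF composite element, which ATF4 binds with a C/EBP partner, was searched as TGATGNAA on both strands. It lay in a window of 3 of 17 genes of the ATF4 side (ASNS, ATF3 and CHAC1). On the endoplasmic reticulum side it lay in a window of 1 of 13 genes (HERPUD1). Over all 35116 windows the share was 3.62%. A gene counted if any of its windows matched, so shares of genes and of windows are not on the same footing. Each stretch is given 5′ to 3′ on the strand of the gene, with the element in capitals.
ASNS, chr7:97872445-97872500, minus strand: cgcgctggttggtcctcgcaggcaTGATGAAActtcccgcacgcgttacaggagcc
CHAC1, chr15:40953238-40953293, plus strand: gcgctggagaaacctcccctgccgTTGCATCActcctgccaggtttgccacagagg
ATF3, chr1:212565192-212565247, plus strand: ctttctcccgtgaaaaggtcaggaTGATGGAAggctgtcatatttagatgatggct
HERPUD1, chr16:56931942-56931997, plus strand: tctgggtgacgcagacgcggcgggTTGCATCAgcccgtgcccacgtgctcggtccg
The element spanned bases -68 to -61 in ASNS, -209 to -202 in CHAC1, -191 to -184 in ATF3 and -176 to -169 in HERPUD1, counted from the start site. In CHAC1 and HERPUD1 it read on the opposite strand.

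The endoplasmic reticulum stress element, which NF-Y and ATF6 bind, was searched as CCAAT, 9 bases of any kind and CCACG on both strands. It lay in a window of 5 of 13 genes of the endoplasmic reticulum side and of 0 of 17 genes of the ATF4 side. Over all windows the share was 0.0769% (27 of 35116), counted per window and not per gene. The element was already known for this arm, so the count is background and no result of these data. The 5 genes were HSPA5, XBP1, HSP90B1, CRELD2 and CALR, and the HSP90B1 stretch holds 2 such elements, both in capitals.
HSPA5, chr9:125241367-125241433, minus strand: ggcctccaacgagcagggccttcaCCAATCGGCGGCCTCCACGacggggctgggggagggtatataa
XBP1, chr22:28800579-28800645, minus strand: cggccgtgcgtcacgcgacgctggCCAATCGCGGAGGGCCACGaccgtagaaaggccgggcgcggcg
HSP90B1, chr12:103930192-103930363, plus strand: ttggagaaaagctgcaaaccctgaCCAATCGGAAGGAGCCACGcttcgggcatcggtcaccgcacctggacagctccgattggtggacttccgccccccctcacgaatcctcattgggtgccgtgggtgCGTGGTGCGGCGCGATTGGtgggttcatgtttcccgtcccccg
CRELD2, chr22:49918530-49918596, plus strand: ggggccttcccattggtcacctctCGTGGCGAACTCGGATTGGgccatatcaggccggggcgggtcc
CALR, chr19:12938360-12938426, plus strand: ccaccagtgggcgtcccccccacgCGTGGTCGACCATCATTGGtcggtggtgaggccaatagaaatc
The core of the unfolded protein response element that spliced XBP1 binds was searched as TGACGTG on both strands. It lay in 1.97% of all windows and in the windows of 0 of these 30 genes. A match is a string of letters and no evidence of binding, and a gene without a match may hold its site elsewhere.

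Levels are given on the log2 scale relative to the 75th percentile of each array's signal, so they compare 1 gene between arrays and not 1 gene with another. That percentile lay between 245 and 338 intensity units on the 8 siRNA arrays and at 822 on the 5-aza-dC array, which was on another slide and read in another scan. UHRF1 was at 2.69 on both siCONT arrays and at 0.36 and 0.07 on the siUHRF1 arrays (log2 fold change -2.47 ± 0.14, SE). With TSA, UHRF1 was at 2.87 and 2.86 on the siCONT + TSA arrays and at -0.34 and -0.62 on the siUHRF1 + TSA arrays. On the slide of the siRNA arrays TSA went with the row and the siRNA with the columns, so position and treatment cannot be told apart. Replicates lay closer together in the control groups: the median absolute difference over probes was 0.070 between the siCONT arrays and 0.076 between the siCONT + TSA arrays, against 0.26 between the siUHRF1 arrays and 0.19 between the siUHRF1 + TSA arrays. Of 8 colorectal epithelial markers, KRT8, KRT18 and CDX2 were above background on all 9 arrays and CDH1 and VIL1 on none. Of 6 markers of other cell types, COL1A1 was above background on all 9 arrays and PECAM1 on none. Their summed level, relative to the 75th percentile, was 0.314 to 0.328 with siCONT and 0.303 to 0.490 with siUHRF1, was 0.530 to 0.570 and 0.743 to 1.005 when TSA was added, and was 1.18 on the 5-aza-dC array, with 1 to 2, 2, 1 to 3, 3 to 4 and 5 of the 6 above background. The epithelial sum was 49.96 to 50.43 with siCONT, 54.8 to 62.1 with siUHRF1, 55.1 to 56.5 and 76.8 to 94.0 when TSA was added, and 48.1 on the 5-aza-dC array. Both sums moved with treatment, and their part in the results was not tested.

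Among the 34 genes, 28 were well above background on all 9 arrays, and none of their probes was saturated. NUPR1 was not above background on either siCONT + TSA array, and CBS on no siCONT or siCONT + TSA array. STC2 and VLDLR passed only on the 5-aza-dC array, ERN1 only there and on 1 siUHRF1 array, and ALDH1L2, a mitochondrial folate enzyme, on 1 siCONT + TSA array alone (that group was at -3.98 and -3.67). These last 4 were not tested on the siRNA arrays, which left 18 genes of the ATF4 side and 12 of the endoplasmic reticulum side. CBS entered the fit of the siRNA arrays only through the UHRF1-depleted groups, and STC2 and VLDLR entered that of the 5-aza-dC array only through that array, so the filter favoured a higher call for them there. In bulk RNA a lower level can mean fewer expressing cells or less RNA per cell, and the arrays cannot tell these apart.

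**Figure D1:**
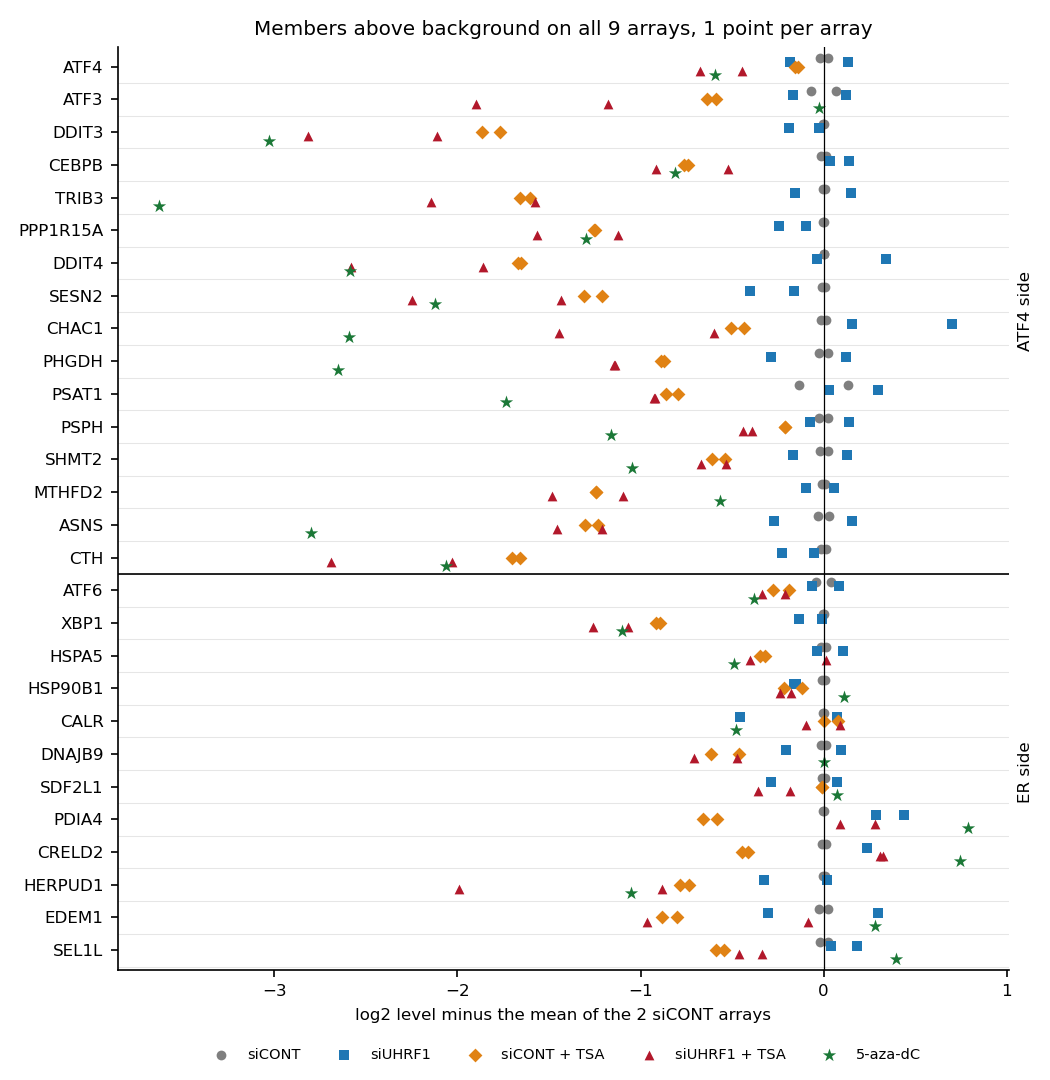
Log2 level of each of the 28 genes above background on all 9 arrays, minus its mean on the siCONT arrays, with 1 symbol per array and colours for the 5 conditions. On the ATF4 side the siCONT + TSA, siUHRF1 + TSA and, apart from ATF3, 5-aza-dC arrays lie left of the siCONT arrays, whereas on the endoplasmic reticulum (ER) side most genes stay within about 1 unit.

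TSA given to control cells lowered much of the ATF4 side, with ATF4 mRNA itself close to its control level. Of 18 genes tested, 13 fell and 0 rose at a limma adjusted p below 0.05, with a median log2 fold change of -1.06. Over all 17743 gene names tested, 3.85% fell, 6.97% rose and the median was 0.08. On the endoplasmic reticulum side 4 of 12 fell and 0 rose, with a median of -0.48. ATF4 was at 7.75 and 7.79 on the siCONT arrays and at 7.63 and 7.61 on the siCONT + TSA arrays. Its log2 fold change of -0.15 ± 0.14 (SE) did not pass (adjusted p = 0.52), and the 95% confidence interval ran from -0.49 to 0.19.

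Of the 7 regulators, ATF4 included, 5 fell. DDIT3, a transcription factor of stress-induced cell death, was at 3.05 and 3.06 on the siCONT arrays and at 1.19 and 1.29 with TSA. DDIT3 fell by 1.82 ± 0.22 (adjusted p = 0.012). TRIB3, a pseudokinase that restrains ATF4 and AKT, read 7.33 and 7.32 without TSA and 5.72 and 5.66 with it, a log2 fold change of -1.63 ± 0.20. PPP1R15A (GADD34), which brings a phosphatase to eIF2 and so ends the response, changed by -1.25 ± 0.16 and CEBPB, a partner of ATF4 on DNA, by -0.75 ± 0.14, both called. NUPR1, a small chromatin protein of the stress response, was at -0.31 and -0.17 on the siCONT arrays and not above background on the TSA arrays. It was at least 15.7-fold lower (adjusted p = 0.0039), with 14.9 to 16.5-fold when 1 array was left out. Under normexp background correction, the fitted log2 change of NUPR1 was -1.58, still called. ATF3, a stress-induced repressor, was at 3.81 and 3.67 without TSA and at a mean of 3.13 ± 0.038 (SD, n = 2) with TSA, and its log2 fold change of -0.61 ± 0.24 was not called. For all 7 regulators, the uncalled ATF4 and ATF3 included, both TSA arrays lay below both siCONT arrays. How many of all gene names separate in this way was not counted, so it shows nothing particular to these 7.

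Among the stress effectors DDIT4 and SESN2, which both restrain mTORC1, fell by 1.66 ± 0.25 and 1.26 ± 0.26. DDIT4 was at 3.36 on both siCONT arrays and at 1.69 and 1.70 with TSA. CHAC1, which degrades glutathione, had a log2 fold change of -0.47 ± 0.30 and was not called. The serine pathway makes serine from a glycolytic intermediate in 3 steps, and its first enzyme, PHGDH, was at 5.08 and 5.13 without TSA and 4.21 and 4.23 with TSA. PHGDH fell by 0.88 ± 0.14 and PSAT1, the second enzyme, by 0.83 ± 0.14 (5.87 and 6.13 against 5.14 and 5.20). PSPH, the phosphatase of the last step, was at 4.49 and 4.44 against 4.25 on both TSA arrays, and its -0.21 ± 0.10 was not called. SHMT2, a mitochondrial enzyme that moves the one-carbon unit of serine onto folate, fell by 0.57 ± 0.13. MTHFD2, of the same mitochondrial one-carbon metabolism, fell by 1.24 ± 0.14, with 4.86 and 4.88 against 3.63 on both TSA arrays. Asparagine synthetase, ASNS, was at 8.01 and 7.96 without TSA and 6.75 and 6.68 with it, and fell by 1.27 ± 0.16. CTH, which makes cysteine from cystathionine, fell by 1.68 ± 0.21. In each of these pairs the groups did not overlap, and no gap within a group exceeded that of PSAT1, 0.26, between the siCONT arrays. The share of gene names without overlap was not counted here either.

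On the endoplasmic reticulum side XBP1, the factor activated by IRE1, had the lowest p, with levels of 5.39 and 5.40 without TSA against 4.50 and 4.48 with TSA, a fall of 0.90 ± 0.11 (adjusted p = 0.011). PDIA4, a disulfide isomerase, fell by 0.62 ± 0.11, SEL1L, an adaptor of the HRD1 ubiquitin ligase, by 0.56 ± 0.10 (0.75 and 0.71 against 0.14 and 0.18) and CRELD2, a secreted stress-induced protein, by 0.43 ± 0.08. HSPA5, the main chaperone of the compartment, was at 1.97 and 1.95 against 1.64 and 1.61, and its -0.33 ± 0.15 was not called, with an interval from -0.70 to 0.03. The chaperones HSP90B1 (-0.17 ± 0.09), CALR (0.04 ± 0.18) and SDF2L1 (-0.01 ± 0.14) were not called either. DNAJB9, a cochaperone of HSPA5, had -0.54 ± 0.14 (adjusted p = 0.066), and the degradation genes HERPUD1 and EDEM1 -0.76 ± 0.34 and -0.84 ± 0.31. The sensor ATF6 had -0.23 ± 0.11.

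These calls rested on a spread pooled over the 8 siRNA arrays. Without any 1 of the siCONT or siCONT + TSA arrays, only NUPR1 of the ATF4 side and 0 of the endoplasmic reticulum side remained called, although the log2 fold changes of the 17 called genes then shifted by at most 0.132. All 17 kept their sign in every alternative that tested them. Scaled on the spike-in probes the median of all probes was -0.13, and 1 gene of the endoplasmic reticulum side was called in place of 4.

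TSA was also given to UHRF1-depleted cells, and this second TSA comparison shares no array with the first. Both comparisons took each gene's spread from the same fit of the 8 siRNA arrays, so their calls are not independent. In these cells TSA lowered 16 of 18 genes of the ATF4 side and 2 of 12 of the endoplasmic reticulum side, and raised 0 of either, against 5.48% of all gene names lower and 10.8% higher. Fitted on the arrays of these groups alone, 7 and 1 were called, and by the methods' t-test after Benjamini-Hochberg 0 and 0. The 13 ATF4-side genes called in control cells were called again, and ATF3, PSPH and CHAC1 were added. XBP1 and SEL1L were called in both, SEL1L on its brightest probe. Its other probes were not called in UHRF1-depleted cells (-0.26 ± 0.12 and -0.30 ± 0.36). Of the 30 genes tested, 28 had the same sign in both comparisons, a share that was not counted over all gene names. The median log2 fold change was -1.27 on the ATF4 side, -0.26 on the endoplasmic reticulum side and 0.08 over all gene names. DDIT3 was at 3.03 and 2.87 on the siUHRF1 arrays and at 0.95 and 0.24 with TSA (-2.36 ± 0.22). CTH was at 4.53 and 4.35 against 2.55 and 1.89 (-2.22 ± 0.21), and NUPR1 at 1.34 and 1.79 against -1.51 and -2.32 (-3.48 ± 0.28). ATF4 was at 7.58 and 7.90 against 7.33 and 7.09, and its -0.53 ± 0.14 came to an adjusted p of 0.052. XBP1 was at 5.26 and 5.39 against 4.33 and 4.14 (-1.09 ± 0.11). HERPUD1, an adaptor that helps export misfolded proteins, was at 5.83 and 5.48 against 4.93 and 3.82 (-1.28 ± 0.34, adjusted p = 0.052). The endoplasmic reticulum count of 2 went to 1 without either siCONT array, either siCONT + TSA array, siUHRF1 replicate 1 or siUHRF1 + TSA replicate 2, and to 4 without siUHRF1 replicate 2.

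**Figure D2:**
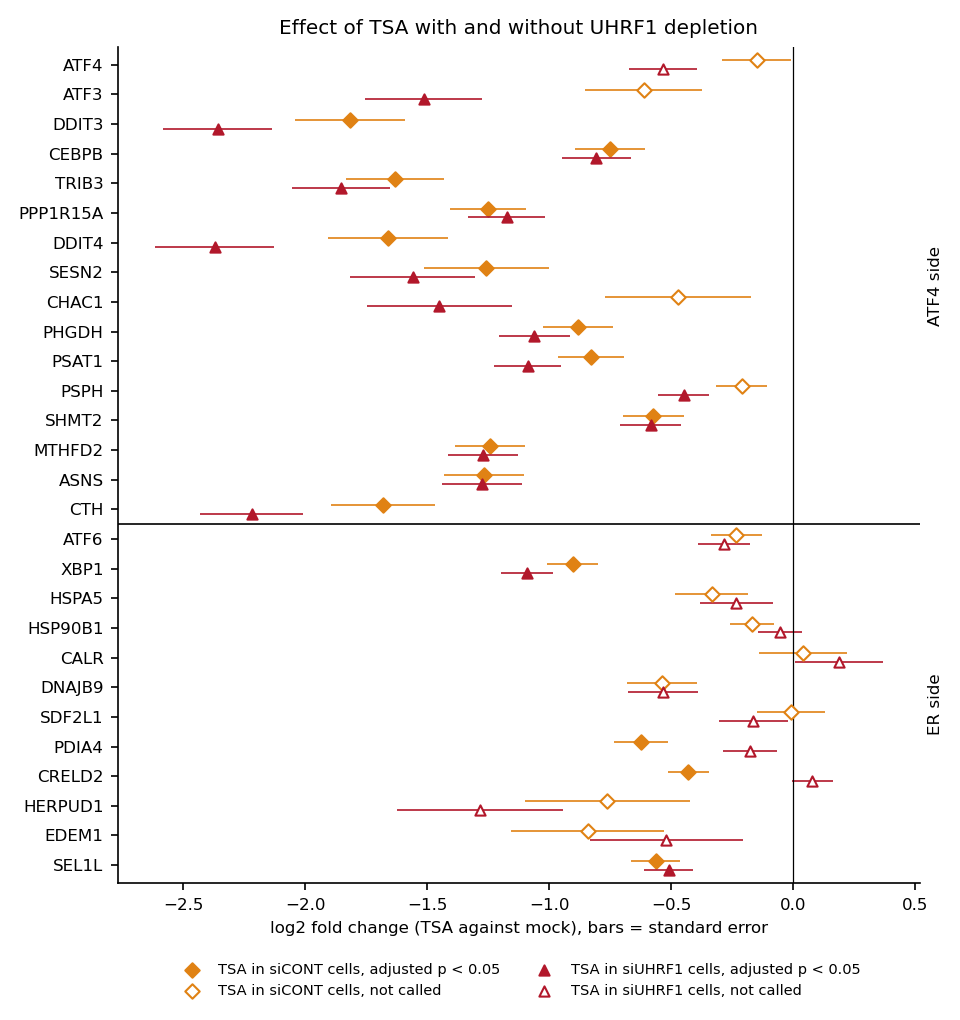
Log2 fold change (x axis) of TSA against mock in siCONT cells (diamonds) and in siUHRF1 cells (triangles) for 28 of the 30 genes tested, with standard errors and with filled symbols for adjusted p below 0.05. NUPR1 and CBS are left out because they were not above background in every group. The ATF4-side genes lie left of 0 in both, down to -2.37 for DDIT4, whereas HSP90B1, CALR and SDF2L1 lie near 0.

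Whether UHRF1 depletion acted differently with and without TSA was tested as the difference between its effects. UHRF1 mRNA itself was at 0.36 and 0.07 on the siUHRF1 arrays and at -0.34 and -0.62 on the siUHRF1 + TSA arrays. The depth of depletion may therefore have differed as well. None of the 30 genes was called, against 0.361% of gene names called higher and 0.0282% lower. By an unadjusted p below 0.05 on the brightest probe, 3 genes passed, ATF3 (-0.90 ± 0.34) and, in the other direction, CRELD2 (0.51 ± 0.12) and PDIA4 (0.44 ± 0.16). Other ATF3 probes had -0.92 ± 0.29, -0.89 ± 0.25 and, with the opposite sign, 0.18 ± 0.17. The second CHAC1 probe, at -0.91 ± 0.36, was below 0.05 too. Over all gene names 884 of 17743 passed at that threshold. CHAC1 had -0.98 ± 0.42, with 4.13 and 4.68 on the siUHRF1 arrays and 3.37 and 2.53 after TSA, and DDIT4 -0.71 ± 0.35, with 3.32 and 3.70 against 1.498 and 0.77. The median of these differences was -0.23 on the ATF4 side, with 15 of 18 below 0, and 0.08 on the endoplasmic reticulum side, with 4 of 12 below 0. Over all gene names it was -0.002, with 8949 of 17743 below 0. For ATF4 the difference of -0.38 had an interval from -0.86 to 0.10.

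UHRF1 depletion alone left most of the genes near their control levels. CBS, which forms cystathionine from homocysteine and serine, was the 1 gene of 18 called on the ATF4 side. It had passed the filter only through the UHRF1-depleted groups, which favoured that call. On the endoplasmic reticulum side 0 of 12 were called by limma, 2 at an unadjusted p below 0.05, 3 by the methods' t-test unadjusted and 0 after Benjamini-Hochberg. The shares over all gene names were 0.614% higher and 0.0282% lower. CBS was at -6.27 and -4.85 on the siCONT arrays, both below background, and at -1.73 and -0.48 on the siUHRF1 arrays. It was at least 9.31-fold higher (adjusted p = 0.033), or 6.04 to 14.4-fold with 1 array left out. Under normexp the fitted log2 change was 1.32 and not called (adjusted p = 0.74). The call of CBS remained only without siCONT replicate 2 and was lost without any other of the 8 arrays. NUPR1 was at -0.31 and -0.17 against 1.34 and 1.79, a log2 fold change of 1.80 ± 0.28 with an adjusted p of 0.073. PDIA4 was at 2.50 on both siCONT arrays against 2.94 and 2.79 (0.36 ± 0.11), and CRELD2 at 3.40 and 3.42 against 3.65 on both siUHRF1 arrays (0.24 ± 0.08). CHAC1 was at 3.96 and 3.99 against 4.13 and 4.68 (0.43 ± 0.30), HSP90B1 at 5.77 and 5.76 against 5.61 and 5.60 (-0.16 ± 0.09). None of these 4 genes was called. Their groups did not overlap, but they were picked for the lowest p on their side, and the share of gene names without overlap was not counted. The medians were -0.02 on the ATF4 side, -0.03 on the endoplasmic reticulum side and -0.00 over all gene names.

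**Figure D3:**
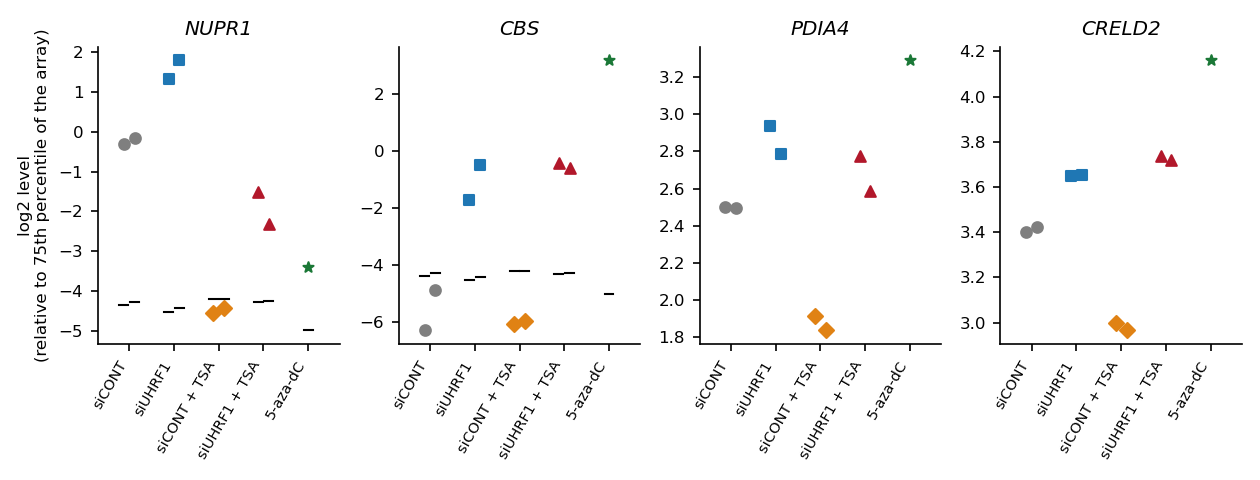
Log2 level of NUPR1, CBS, PDIA4 and CRELD2 on each array, by condition, with a separate y axis for each gene. Black ticks in the NUPR1 and CBS panels mark the lowest signal that counted as above background on that array, and both siCONT + TSA arrays lie below it for both genes.

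In TSA-treated cells UHRF1 depletion raised 4 of the 30 genes, CBS and NUPR1 on the ATF4 side and CRELD2 and PDIA4 on the endoplasmic reticulum side. None fell, and the shares over all gene names were 3.27% higher and 0.581% lower. CBS was below background on the siCONT + TSA arrays and at -0.42 and -0.60 on the siUHRF1 + TSA arrays, at least 13.0-fold higher (adjusted p = 0.0046). It had passed the filter only through the UHRF1-depleted groups, which favoured a higher call, so its call is no support. NUPR1 was at -1.51 and -2.32 on the siUHRF1 + TSA arrays, at least 4.90-fold higher than with TSA alone (adjusted p = 0.0064). Under normexp neither was called, with log2 changes of 1.21 for CBS (adjusted p = 0.21) and 0.43 for NUPR1 (adjusted p = 0.37). CRELD2 rose from 2.998 and 2.97 to 3.74 and 3.72 (0.75 ± 0.08, adjusted p = 0.0073). PDIA4 rose from 1.91 and 1.84 to 2.78 and 2.59 (0.81 ± 0.11, adjusted p = 0.015). The call of PDIA4 was lost without siUHRF1 + TSA replicate 1 or any 1 of the siCONT or siCONT + TSA arrays, and that of CRELD2 without either siCONT + TSA array. Without siUHRF1 + TSA replicate 1 the ATF4 side counted 6 called genes, with ATF3, DDIT3, SESN2 and CTH called lower, and HERPUD1 was called lower on the other side. ATF3 had -0.93 ± 0.24 on all arrays (adjusted p = 0.11), and XBP1 -0.26 ± 0.11.

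Set against control cells without TSA, siUHRF1 + TSA had lower levels of most ATF4-side genes. Directly against siCONT + TSA, though, no ATF4-side gene was called lower, and the median log2 fold change was -0.22. In that direct comparison 15 of 18 were below 0, against 9022 of 17743 gene names. The comparison with siCONT shares the siCONT arrays with that of TSA alone. Of 18 genes, 16 fell and CBS rose, against 8.07% of gene names lower and 16.1% higher, and the median log2 fold change was -1.31 against 0.07 over all gene names. All 7 regulators and all 5 tested enzymes of serine and one-carbon metabolism fell. ATF4 fell by 0.56 ± 0.14 (adjusted p = 0.035), from 7.75 and 7.79 to 7.33 and 7.09, a call that was lost without any 1 of the siCONT, siCONT + TSA or siUHRF1 + TSA arrays. DDIT3 reached 0.95 and 0.24 from 3.05 and 3.06 (-2.46 ± 0.22), and CTH 2.55 and 1.89 from 4.57 and 4.60 (-2.36 ± 0.21). ATF3 reached 2.56 and 1.84 (-1.54 ± 0.24), PHGDH 3.97 and 3.96 (-1.14 ± 0.14), ASNS 6.77 and 6.53 (-1.33 ± 0.16) and PSPH 4.02 and 4.07 (-0.42 ± 0.10). NUPR1, at -1.51 and -2.32, fell by 1.68 ± 0.28, a call lost without either siCONT array. CHAC1, at -1.02 ± 0.30, missed the threshold with an adjusted p of 0.054. CBS was at least 14.1-fold higher (adjusted p = 0.0027), with a fitted log2 change of 1.73 under normexp, also called. The filter, which CBS passed only through the UHRF1-depleted groups, favoured a higher call here too.

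On the endoplasmic reticulum side the combination lowered 4 of 12 genes and raised 1, and the median was -0.27. XBP1 fell by 1.16 ± 0.11, to 4.33 and 4.14. HERPUD1 reached 4.93 and 3.82 from 5.80 and 5.82 (-1.44 ± 0.34), and DNAJB9 reached 2.28 and 2.52 from 3.01 and 2.98 (-0.59 ± 0.14). SEL1L fell by 0.40 ± 0.10 on its brightest probe, while its other probes, at -0.32 ± 0.12 and 0.07 ± 0.36, were not called. CRELD2 rose by 0.32 ± 0.08 (adjusted p = 0.042), against -0.43 with TSA alone, and this call too was lost without any 1 of the siCONT, siCONT + TSA or siUHRF1 + TSA arrays. HSPA5 was at 1.97 and 1.56 against 1.97 and 1.95, so the groups overlapped, and its -0.20 ± 0.15 was not called. The ATF4-side count of 17 was 11 without either siCONT array and 14 to 17 without 1 of the others. The endoplasmic reticulum count of 5 was 1 without any 1 of the siCONT or siCONT + TSA arrays, and 2 and 3 without siUHRF1 + TSA replicates 1 and 2.

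The arrays of siUHRF1-1 and siUHRF1-2 differed more than the control arrays did. For the 28 genes above background everywhere, replicates differed by a median of 0.028 with siCONT and 0.051 with siCONT + TSA, against 0.25 and 0.24 in the UHRF1-depleted groups without and with TSA. With TSA, 14 of the 16 ATF4-side genes were lower on the siUHRF1-2 array than on the siUHRF1-1 array, with a median difference of -0.42. Without TSA, 6 of the 16 were lower and the median difference was 0.24. The largest gap was that of HERPUD1 with TSA, -1.11, followed by EDEM1, which trims mannose from misfolded glycoproteins, at -0.88 and CHAC1 at -0.85. PHGDH, PSAT1 and PSPH differed by -0.01, 0.01 and 0.05. Each siRNA was measured on 1 array per treatment, so these differences have no test. Over all probes tested the median absolute difference was 0.26 without TSA and 0.19 with it. Its direction over all gene names was not counted, so whether the counts are particular to these genes is not known.

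**Figure D4:**
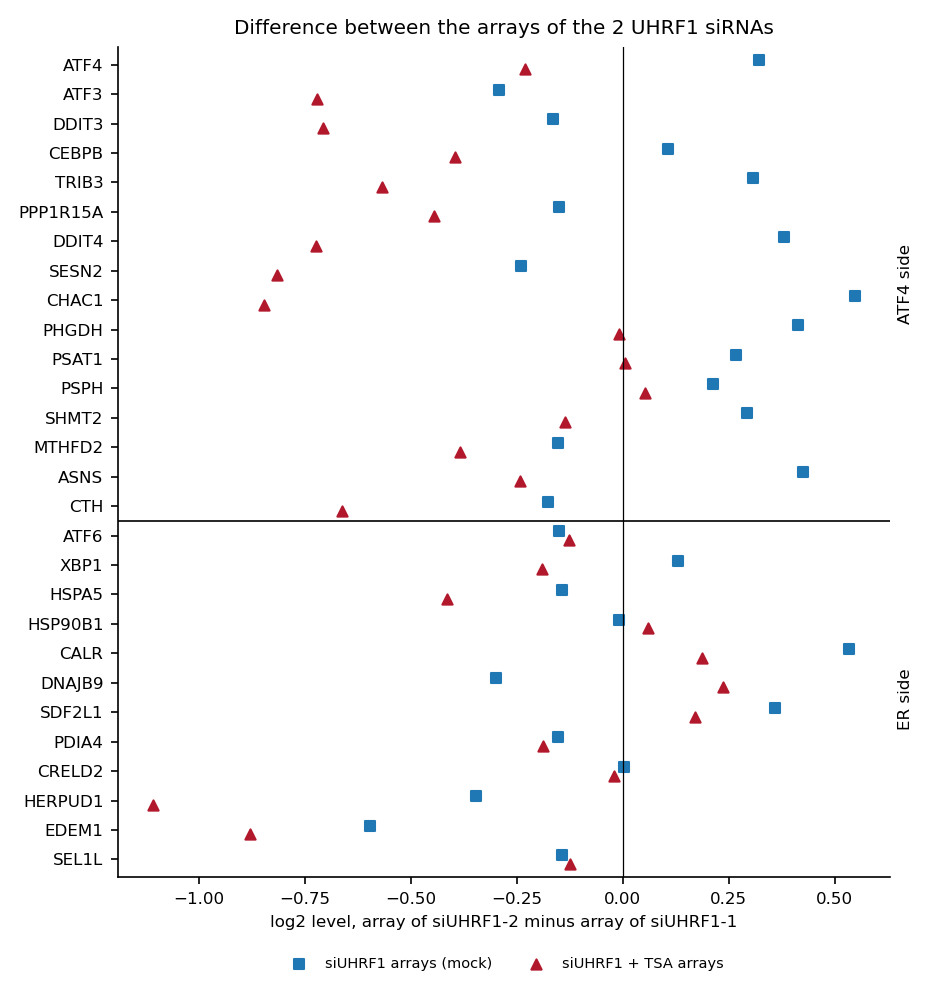
Log2 level on the siUHRF1-2 array minus that on the siUHRF1-1 array for the 28 genes above background on all arrays, without TSA (squares) and with TSA (triangles). With TSA most ATF4-side genes lie left of 0, from CHAC1 at -0.85 to PSPH at 0.05, and without TSA most lie right of it.

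The 5-aza-dC array showed lower levels of nearly the whole ATF4 side. This comparison sets 1 array against the 2 siCONT arrays, with the single array assumed to vary like the other groups, and it also differs in slide, scan and siRNA transfection, which cannot be told apart from the agent. It shares its controls with the comparisons above. Of 20 ATF4-side genes fitted, 16 were lower and 3 higher, and of 13 on the endoplasmic reticulum side 1 was lower and 3 higher. Of the 3 higher ATF4-side genes, STC2 and VLDLR could hardly come out otherwise, given the filter. The adjusted p-values and calls for this array rest on the spread of the other groups. Over 20286 gene names 23.9% were lower and 25.2% higher. The medians were -1.52, 0.07 and, over all gene names, 0.05.

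TRIB3 was at 3.69 on the 5-aza-dC array (-3.63 ± 0.25, adjusted p = 0.00017), NUPR1 at -3.41 (-3.17 ± 0.35) and DDIT3 at 0.03 (-3.03 ± 0.28). ASNS was at 5.18 (-2.80 ± 0.20) and PHGDH at 2.45 (-2.65 ± 0.18). PSAT1, at 4.26, and PSPH, at 3.30, were lower by 1.74 ± 0.17 and 1.16 ± 0.13 in log2 units. ATF4 was at 7.18, with a log2 fold change of -0.59 ± 0.17 (adjusted p = 0.034), and ATF3 at 3.71, with -0.03 ± 0.30 and no call. The call of ATF4 was lost without any 1 of the siCONT or siCONT + TSA arrays. MTHFD2 had -0.57 ± 0.18 and the rest of the called ATF4-side genes lay between -0.81 and -2.59.

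The 3 ATF4-side genes higher on the 5-aza-dC array were below background on both siCONT arrays. CBS was at 3.17, at least 179.7-fold higher (adjusted p = 0.00028), with a fitted log2 difference of 5.04 under normexp against 8.73. VLDLR, a lipoprotein receptor, and STC2, a secreted glycoprotein, were at -3.61 and -3.72, at least 1.63-fold and 1.515-fold higher. With normexp background correction the fitted differences of VLDLR and STC2 turned to -0.38 and -0.36. On the endoplasmic reticulum side PDIA4 was at 3.29 (0.79 ± 0.14) and CRELD2 at 4.16 (0.75 ± 0.10), above every siRNA array. SEL1L was higher by 0.40 ± 0.12 on its brightest probe, but another of its probes was called lower (-0.63 ± 0.15, adjusted p = 0.018). XBP1 was at 4.29 (-1.10 ± 0.13). HSPA5, at 1.47 (-0.49 ± 0.19), HSP90B1 (0.11 ± 0.11), CALR (-0.48 ± 0.23), DNAJB9 (0.00 ± 0.18), SDF2L1 (0.07 ± 0.17), ATF6 (-0.38 ± 0.13), HERPUD1 (-1.05 ± 0.43), EDEM1 (0.28 ± 0.39) and ERN1 (0.38 ± 0.51) were not called. Scaled on the spike-in probes the median of all probes moved to -1.28, and PDIA4, CRELD2 and SEL1L stood at -0.51, -0.55 and -0.90, below 0 but above that median.

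**Figure D5:**
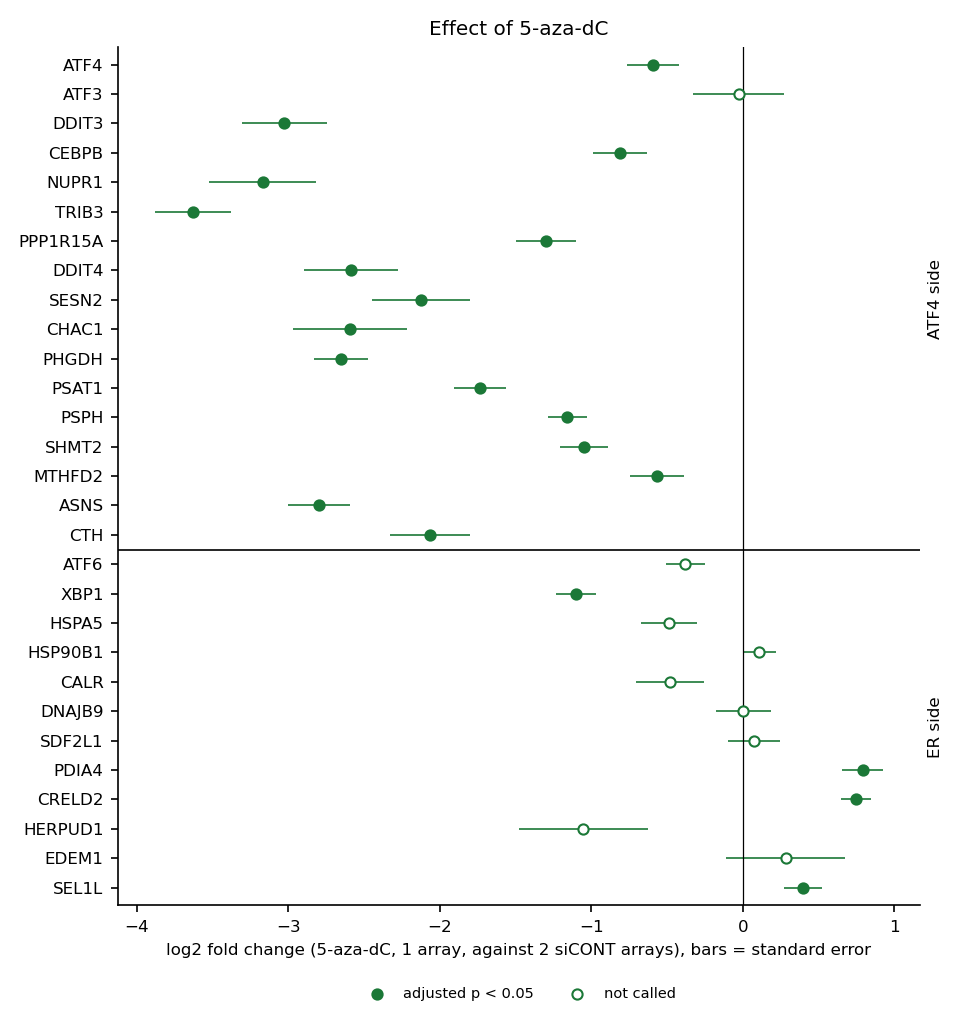
Log2 fold change of the 5-aza-dC array against the siCONT arrays, with standard errors from the fit and filled symbols for adjusted p below 0.05. CBS, STC2, VLDLR and ERN1 are left out because they were below background on the siCONT arrays. The ATF4 side reaches from -3.63 for TRIB3 to -0.03 for ATF3, and PDIA4, CRELD2 and SEL1L lie right of 0.

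More than 1 probe was present for 6 of the 34 genes. Of the 3 ATF3 probes beside the brightest, 2 followed it in the combination (-1.54 ± 0.21 and -1.23 ± 0.18) and 1 did not (-0.06 ± 0.12). The second CHAC1 probe had -1.03 ± 0.26 and was called lower (adjusted p = 0.034), where the brightest was not. The second PSAT1 probe fell by 1.71 ± 0.34 under TSA alone, and the second HSP90B1 probe had -0.47 ± 0.27. The remaining SEL1L probe had -0.83 ± 0.45 on the 5-aza-dC array, so the direction for SEL1L there depended on the probe.

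Other genes of the pathway, listed with earlier results of these data known, were counted in the same way. Of 36 further ATF4-side genes, 34 were tested. In control cells TSA lowered 15 and raised 1, with a median log2 fold change of -0.34, against 3.85% lower and 6.97% higher over all gene names. The combination lowered 16 and raised 3, against 8.07% and 16.1%. NFIL3, a repressor of the bZIP family, fell by 1.41 ± 0.09 in the combination, SLC7A11, the cystine transporter, by 1.47 ± 0.13, and GTPBP2, a ribosome rescue factor, by 1.70 ± 0.16. UHRF1 depletion alone called 0 of the 34 (6 at an unadjusted p below 0.05), and 5-aza-dC went with 20 lower and 2 higher, against 23.9% and 25.2% over all gene names. At that unadjusted threshold 1589 of 17743 gene names passed for UHRF1 depletion alone. Of 56 further endoplasmic reticulum genes, 54 were tested. TSA in control cells lowered 3 and raised 3, with a median of -0.04, and the combination lowered 7 and raised 5. There ERP29, a luminal chaperone, fell by 0.72 ± 0.09, whereas NPLOC4, a cofactor of the p97 ATPase, and SEC61B, a subunit of the translocation channel, rose by 0.69 ± 0.10 and 0.57 ± 0.08. On the 5-aza-dC array 10 were higher and 13 lower, against 25.2% and 23.9%, so neither share was clearly above that over all gene names. No test compared these lists with the 34 genes or with each other.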

How the data were processed

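The authors scanned 1-colour Agilent arrays of RKO total RNA and extracted them with Agilent Feature Extraction 10.7.3.1, per the file headers. The deposited intensity values are background-subtracted and detrended, with no normalization between arrays, and dim spots carry surrogate values. Array annotation names the build hg19, whereas promoters came from the RefSeq table of GRCh38.p14. Intensities were set to log2, shifted by each array's 75th percentile over non-control spots, and averaged over the spots of a probe without outlier-flagged spots. A probe was above background on an array where at least 0.5 of its kept spots were. The filter kept probes above background throughout 1 group or more, and these were fitted with limma 3.58.1 in R 4.3.3, 23730 probes on the 8 siRNA arrays and 27173 on all 9, with Benjamini-Hochberg adjustment over all probes tested. A gene below background on every array of a group has a lower limit of its fold change, with each dim array put at the lowest signal above background there or at its own signal if higher. Counts over gene names use the brightest probe of each. Every gene of the list is reported. Values on each array are given for ATF4, DDIT3, PHGDH, PSAT1, PSPH, ASNS, XBP1, HSPA5, NUPR1, the targeted gene UHRF1 and the 3 genes of lowest p on each side in each comparison, and of the other pathway genes the 3 of lowest p on each side with siUHRF1 + TSA against siCONT are named. Further genes with array values were chosen after their values were seen. The genes, lists and tests were chosen with earlier results of these data known. The number of arrays limits the precision. The fit was tested on simulated data. Alternatives were normexp background correction, quantile, median and spike-in scaling, no filter on dim probes or only probes bright on every array, no removal of outlier spots, the authors' value table, only the groups compared, a replicate block, a trended robust prior, the mean over probes, the methods' t-test and leaving out each array, which leaves 1 array assumed to vary like the others. Arrays of DLD1 cells were not analysed here.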

Additional observations from a re-analysis of the deposited data

How the results depend on the processing

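Counts of called genes are given as ATF4 side, then endoplasmic reticulum side. For UHRF1 depletion alone (1 and 0), the ATF4 side gave 0 under normexp, no filter, the stricter filter, only the groups compared and the t-test with Benjamini-Hochberg, and 2 under the trended robust prior and the unadjusted t-test, which gave 3 on the other side. That unadjusted t-test called 1847 of 23716 probes. For TSA in control cells (13 and 4), no filter gave 7 and 1. The endoplasmic reticulum count was 2 under normexp, 1 under spike-in scaling, 9 with only the groups compared, and 7 and 8 by the t-test with and without adjustment. Over all probes, 9929 of 22510 were called with only the groups compared, against 2469 of 23730 in the main fit. The t-test with and without adjustment called 4344 and 9811 of 23705 probes. For the combination (17 and 5), the adjusted t-test gave 0 and 0, and the endoplasmic reticulum count was 2 under normexp, 3 under spike-in scaling, 1 with no filter and 2 with only the groups compared. For UHRF1 depletion under TSA (2 and 2), normexp and the adjusted t-test gave 0 and 0, the stricter filter 0 on the ATF4 side, the unadjusted t-test 4 there, and spike-in scaling and only the groups compared 1 on the other side. In this comparison the unadjusted t-test called 3634 of 23717 probes. For TSA in UHRF1-depleted cells (16 and 2), only the groups compared gave 7 and 1 and the t-test 0 and 0 adjusted and 10 on the ATF4 side unadjusted. Over all probes, only the groups compared called 647 of 23389 and the unadjusted t-test 3350 of 23728. The endoplasmic reticulum count there was 1 under spike-in scaling, no filter and the mean over probes, and 4 under the stricter filter and the trended robust prior. For 5-aza-dC, spike-in scaling raised the endoplasmic reticulum count, with the median log2 fold change of all probes at -1.28 against 0.01 in the main fit.

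With each array left out in turn, the ATF4 side gave 0 to 1 for UHRF1 depletion, 1 to 13 for TSA in control cells, 11 to 17 for the combination, 2 to 6 for UHRF1 depletion under TSA, 12 to 16 for TSA in UHRF1-depleted cells and 16 to 19 for 5-aza-dC. The endoplasmic reticulum side gave 0, 0 to 5, 1 to 5, 0 to 2, 1 to 4 and 3 to 6. The 5-aza-dC count of 6 came without any 1 of the UHRF1-depleted arrays.

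Among genes called in at least 1 of the settings compared, the sign on the 5-aza-dC array turned for STC2 (-0.36) and VLDLR (-0.38) under normexp, for HSP90B1 (-1.19), DNAJB9 (-1.29), SDF2L1 (-1.22), PDIA4 (-0.51), CRELD2 (-0.55) and SEL1L (-0.90) under spike-in scaling, and for SEL1L (-0.35) with the mean over probes. It also turned for ATF3, EDEM1 and ERN1, which were not called in either setting, with values down to -1.015 (EDEM1) and -0.91 (ERN1) under spike-in scaling and 0.18 (ATF3) under normexp. The cause was not tested.

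Same-numbered arrays deviated together only for siUHRF1 with siUHRF1 + TSA (correlation 0.466), which carry the same siRNA, against -0.0473 to 0.0796 for the other pairs of groups. With the number as a replicate block, calls were 1 and 0 for UHRF1 depletion, 12 and 3 for TSA in control cells, 16 and 4 for the combination, 2 and 2 for UHRF1 depletion under TSA and 15 and 3 for TSA in UHRF1-depleted cells. The 5-aza-dC array has no pair.

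Scaling moved the split of all called probes. TSA in control cells had 1533 higher and 936 lower, against 529 and 1176 with spike-in scaling. The combination had 3558 and 1956, against 2250 and 2140 with spike-in and 3140 and 2792 with quantile scaling. TSA in UHRF1-depleted cells had 2361 and 1310, against 1229 and 1500, and 2084 and 1962. The 5-aza-dC array had 6556 and 6727, against 2304 and 19461 with spike-in scaling and 3262 and 6605 under normexp. With normexp TSA in control cells had 205 and 213. Precision is limited by 2 arrays a group, and dim genes by signal over background.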
